A study of Mus musculus with 36 samples.

Results

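Germ cells were compared with supporting cells of the fetal mouse gonad at the first of 3 stages, TS13, which the labels place before sexual differentiation began. The comparison held 12 of the 36 arrays of the series, chosen by their titles: 6 of germ cells (3 XX, 3 XY) and 6 of supporting cells (3 XX, 3 XY). Germ cells were sorted on an Oct4 reporter from fetuses labelled as progeny of C57BL/6NJ on a mixed background. Supporting cells of both sexes were sorted on the Tg(Sry-EGFP)92Ei transgene in fetuses labelled as progeny of CD-1, so that the regulatory sequence of Sry drove the marker. Gonads had been pooled by sex, treated with trypsin, stained with DAPI and sorted. RNA was read on Affymetrix Mouse Gene 1.0 ST arrays, which carry many probes along each gene. For a later stage, TS34, 12 further arrays were used, in which XX cells and XY germ cells came from the same lines and XY supporting cells from Tg(Sox9-cre/ERT2)1Msan/J fetuses, progeny of C57BL/6.

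Every germ cell array came from one mouse line and every supporting cell array from another, so cell type and line cannot be told apart in any value below. In sorted bulk samples, a gene carried by fewer cells and a gene with less RNA per cell cannot be told apart either. Values are log2 expression, on which a difference of 1 is a doubling of signal. Each difference is germ minus supporting, with its standard error (SE) and n = 6 arrays per cell type, unless stated.

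Primordial germ cells migrate into the gonadal ridge and, at this stage, still carry much of the pluripotency network beside genes of the germ line. The somatic supporting lineage arises from the surface epithelium of the ridge, expresses transcription factors such as WT1, GATA4 and NR5A1, and later forms Sertoli cells in the testis or pregranulosa cells in the ovary. The supporting cells make KIT ligand, the survival and guidance signal read by the KIT receptor on germ cells.

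The 12 arrays separated by cell type. Over all probe sets, arrays of 1 group correlated at r of 0.9631 to 0.9837, XX with XY arrays of the same cell type at 0.9543 to 0.9843, and germ with supporting arrays at 0.9038 to 0.9325. The first principal component held 58.8% of the variance and placed the germ arrays between 59.43 and 78.23 and the supporting arrays between -73.53 and -64.67. Supporting XY replicate 3 stood apart on the second component, at -71.85 against -16.48 to 33.55 for the other arrays. Germ XY replicate 3 stood apart on the third, at -66.53. Both are kept, and the counts without both follow below. Array medians ran from 6.523 to 6.841 in germ cells and from 6.523 to 6.627 in supporting cells.

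The marker genes followed the labels on all 12 arrays, and Pou5f1, whose reporter was used for the sort, is a check of the sort rather than a result. Pou5f1, which encodes OCT4, lay at 10.92 (lowest), 11.19 (median) and 12.02 (highest) in germ cells and at 5.06, 5.14 and 5.32 in supporting cells, a difference of 6.16 ± 0.16 (limma adjusted p = 1.01e-14). Ddx4, the germ cell RNA helicase also called VASA, lay at 10.48, 10.80 and 10.92 against 4.82, 5.13 and 5.26, a difference of 5.69 ± 0.12 (adjusted p = 1.68e-15). Wt1, a transcription factor of the gonadal ridge, lay at 7.26, 7.58 and 8.08 in germ cells and 11.30, 11.58 and 11.67 in supporting cells, a difference of -3.92 ± 0.14 (adjusted p = 2.4e-13). For all 3 genes the 6 germ and 6 supporting arrays did not overlap. Kitl, which encodes KIT ligand, lay at 5.70, 6.00 and 6.80 in germ cells and at 10.17, 10.84 and 11.21 in supporting cells (-4.72 ± 0.19, adjusted p = 2.03e-12), and its receptor gene Kit showed the mirror pattern, with 10.08, 10.42 and 10.77 against 6.45, 6.68 and 6.99 (3.71 ± 0.14, adjusted p = 1.19e-12). Ligand and receptor therefore lay on opposite sides of the comparison, neither with overlapping arrays. The Y-linked genes Eif2s3y, Kdm5d and Uty were higher on all 6 XY arrays than on all 6 XX arrays.

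Of 16812 genes tested, 7157 (42.6%) differed between the cell types at an adjusted p under 0.05 in limma, 4955 (29.5%) higher and 2202 (13.1%) lower in germ cells. The groups of 6 arrays did not overlap for 4667 genes (27.8%). Among the called genes, 2783 (16.6%) differed by at least 1 log2 unit, 1906 (11.3%) of them higher. At least 2 log2 units separated the cell types for 725 genes (4.31%), of which 446 (2.65%) were higher and 279 (1.66%) lower, and at least 4 for 66 (0.393%), of which 42 (0.250%) were higher. The excess of genes higher in germ cells depended on the scaling. Quantile normalization gave 7266 calls (43.2%), 3566 (21.2%) higher and 3700 (22.0%) lower. Centring each array on its median gave 7330 (43.6%), 4302 (25.6%) higher and 3028 (18.0%) lower. The median difference of all genes was 0.11 as deposited, -0.05 after quantile normalization and 0.00 after centring. The split by direction was therefore even under quantile normalization and uneven as deposited. List counts below stand beside 29.5% higher and 13.1% lower as deposited, and beside 21.2% and 22.0% after quantile normalization. Of the 7157 calls, 5768 were made in the same direction after quantile normalization. Without supporting XY replicate 3 and germ XY replicate 3, 7084 genes were called, 4711 higher and 2373 lower.

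**Figure D1:**
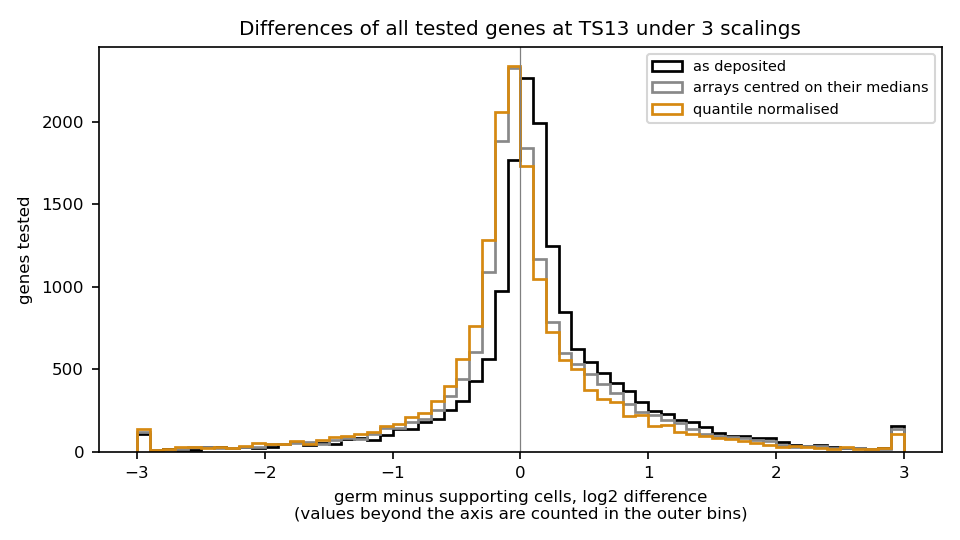
Number of tested genes (y axis) by germ minus supporting log2 difference at TS13 (x axis), for the values as deposited, after centring each array on its median and after quantile normalization. The deposited curve has its median at 0.11 and lies to the right of the other 2 curves, whose medians are 0.00 and -0.05.

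The 10 largest differences toward germ cells included 3 members of the core pluripotency list, Dppa5a, Pou5f1 and Fbxo15, and the germ cell genes Ddx4 and Dazl. Dppa5a, a KH-domain RNA-binding protein gene of pluripotent cells, lay at 12.88, 13.06 and 13.69 in germ cells and 5.34, 6.24 and 6.78 in supporting cells (6.96 ± 0.22, adjusted p = 6.86e-14). Pou5f1 came next, followed by Cyct, the testis form of cytochrome c, at 11.31, 11.74 and 12.03 against 5.56, 5.71 and 6.23 (5.89 ± 0.14). Rpl39l, a ribosomal protein gene paralogous to Rpl39, differed by 5.71 ± 0.16. It and Ddx4 (5.69 ± 0.12) stood beside the zinc finger gene Zfp640 (5.64 ± 0.13) and Fbxo15 (5.64 ± 0.14), an F-box gene of embryonic stem cells. Lrrc34, a leucine-rich repeat gene, differed by 5.56 ± 0.17, Dazl, an RNA-binding protein required by germ cells, by 5.42 ± 0.12, and Rhox9, an X-linked reproductive homeobox gene, by 5.42 ± 0.22. Supporting cells showed values of 4.23 to 4.93 for Zfp640 and of 7.02 to 8.52 for Rhox9, all below the germ arrays. Dppa5a, Rpl39l and Rhox9 have close relatives in the genome, and signal shared with them cannot be told apart here.

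The 10 largest differences toward supporting cells joined Kitl with genes of varied function. Trps1, a GATA-type zinc finger repressor, lay at 4.35, 5.78 and 6.51 in germ cells and 10.21, 11.02 and 11.39 in supporting cells (-5.37 ± 0.30, adjusted p = 1.16e-10). Akr1cl, an aldo-keto reductase gene, differed by -5.22 ± 0.17 and Wt1os, the antisense transcript at Wt1, by -5.15 ± 0.16. Wt1os overlaps Wt1 in the genome, and whether the signal kept its strand is not given in the sources used here. Smarca1, which encodes an ISWI chromatin remodelling ATPase, lay at 5.44, 5.63 and 6.05 against 10.45, 10.92 and 10.999 (-5.12 ± 0.14). The remaining genes were the uncharacterised transcript E330013P04Rik (-4.85 ± 0.34), the lipase relative Pnliprp2 (-4.76 ± 0.14), the BTB-domain gene Kctd14 (-4.75 ± 0.14), the kelch gene Klhl23 (-4.75 ± 0.16) and Dock4, an activator of small GTPases (-4.72 ± 0.14). E330013P04Rik varied most among supporting arrays, from 9.66 to 11.85, and still did not overlap the germ range of 5.52 to 7.50.

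**Figure D2:**
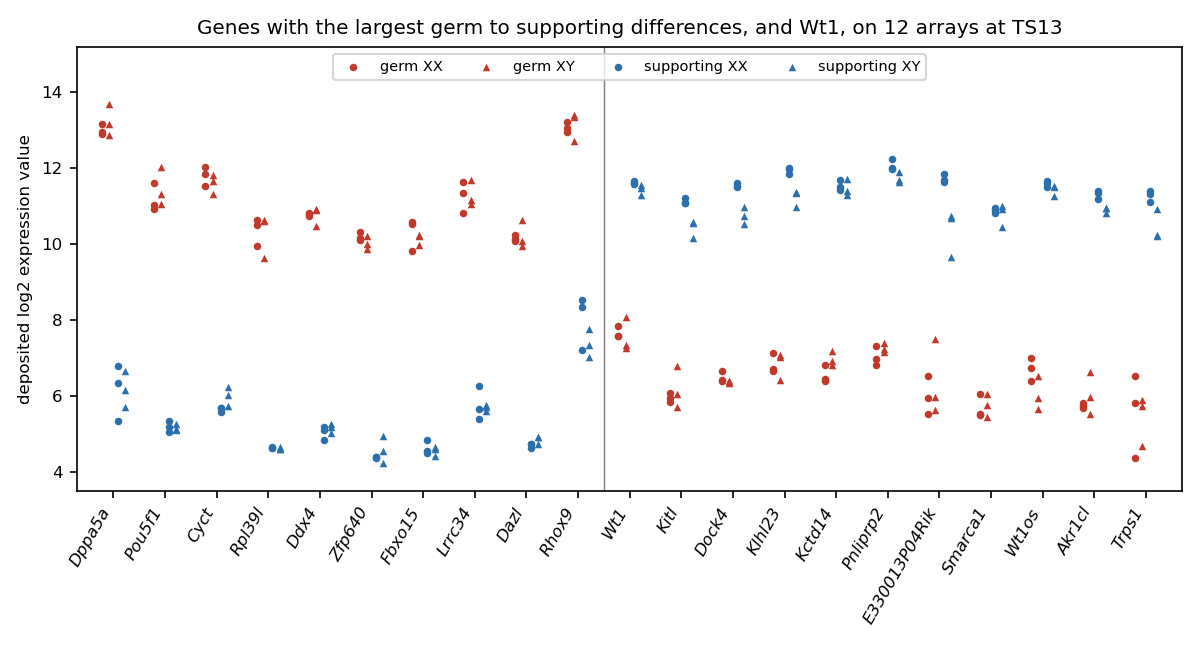
Deposited log2 expression values (y axis) of the 10 genes with the largest difference in each direction and of Wt1, one point per array, circles for XX and triangles for XY, red for germ and blue for supporting cells. For each gene the 6 germ and the 6 supporting points lie apart, and E330013P04Rik comes closest, with germ cells up to 7.50 and supporting cells from 9.66.

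Pluripotency genes were mostly higher in germ cells. Of 18 genes of the core network, all tested, 14 were higher and 2 lower (all genes: 29.5% and 13.1%), with a median difference of 2.57 against 0.11 over all genes. Without Pou5f1, on which the cells were sorted, 13 of 17 were higher and 2 lower, with a median of 2.11. Supporting means of Fbxo15 (4.59), Zfp42 (4.98), Sox2 (5.02) and Pou5f1 (5.17) lay below the filter on low values for those arrays (5.240 or more). Such genes passed mainly through the germ arrays, which favoured a higher call. Sox2, a partner of OCT4 on DNA, lay at 9.44, 10.03 and 10.17 in germ cells and 4.75, 5.05 and 5.34 in supporting cells (4.92 ± 0.14). Nanog lay at 9.73, 9.93 and 10.45 against 6.36, 6.62 and 6.89 (3.38 ± 0.13). Neither gene overlapped between cell types. Tdgf1, the co-receptor of Nodal also called Cripto, differed by 4.76, Zfp42 by 3.77 and Sall4 by 3.15. Klf4 (-0.99) and Nr0b1 (-2.39), an orphan nuclear receptor gene also active in the gonadal soma, were lower in germ cells, and Klf2 (0.27) and Tbx3 (-0.01) did not pass the test.

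Genes that specify primordial germ cells, with the DPPA group, were higher in 15 of 18 and lower in 0, with a median difference of 2.15. Dppa3, also called Stella, lay at 11.22, 11.35 and 11.76 against 5.96, 6.12 and 6.84 (5.23 ± 0.15). Prdm1, the repressor BLIMP1 that starts the germ cell programme, lay at 8.84, 9.21 and 9.61 against 5.42, 5.52 and 5.67 (3.70 ± 0.13). Its partners Tfap2c and Prdm14 differed by 2.48 and 1.90, and Nanos3, which protects germ cells from death, by 2.0. Alpl, the alkaline phosphatase long used to stain these cells, differed by 3.10. Fut4 (-0.11), Ifitm1 (-0.13) and Sox17 (0.18) did not pass the test.

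Of 23 genes for germline RNA-binding proteins and germ granules, 17 were higher and 0 lower, with a median difference of 1.94. Supporting means of Stk31 (4.48), Asz1 (4.70), Dazl (4.77), Mael (4.86), Gtsf1 (4.89) and Ddx4 (5.09) lay below the filter level of those arrays (5.240 or more). Such genes passed mainly through the germ arrays, which favoured a higher call. Henmt1, low in both cell types (5.04 and 4.94), was not tested. Stk31 differed by 5.06, Tdrd12 by 4.84, Asz1 by 4.53, Mael by 4.04, Rnf17 by 3.90 and Mov10l1 by 3.37, all members of the piRNA pathway or its granules. The PIWI genes themselves were uneven. Piwil2, which encodes MILI, differed by 1.94, whereas Piwil4, which encodes MIWI2, and Piwil1 had estimates of 0.10 and 0.16 and did not pass the test, and neither did Nanos2 (0.29), Tdrd1 (0.22), Tdrd6 (-0.02) or Tdrd9 (0.31).

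Germline genes that somatic cells hold silent through promoter methylation were higher in 20 of 22 and lower in 1, with a median difference of 2.85. Silence in somatic cells defines the list, so this direction is a description of it, and methylation was not measured. Stk31 and Dazl, at most 4.61 and 4.92 in supporting cells, passed the filter through germ arrays alone. They were not the only such genes. Supporting means of Hormad1 (4.15), Tex11 (4.38), Tuba3b (4.59), Slc25a31 (4.62), Asz1 (4.70) and Tex13b (4.75) lay below the filter level of those arrays (5.240 or more). So did those of Mael (4.86), Zfp42 (4.98) and Ddx4 (5.09). Such genes passed mainly through the germ arrays, which favoured a higher call with or without a promoter motif. Such promoters often carry an E-box, CACGTG, or an E2F6 motif, TCCCGC, which are read by repressor complexes with MGA and MAX or with E2F6. The 250 bases before the RefSeq start (GRCm38.p6) were searched for these motifs on both strands, and 20 of the 22 genes had such a window. The E-box was found in 9 of 20 windows (45.0%), against 6.05% of 27025 genes with a window, 7.72% of 13248 tested genes and 9.62% of 8307 tested genes with at least 10 CpG in the window. The E2F6 motif was found in 8 of 20 (40.0%), against 16.89%, 26.45% and 37.65%. The list was drawn from genes known for this control, so the motif counts are a description of the list. Genes with and without the motif were mostly higher in germ cells: with an E-box 8 of 9 genes were higher and 1 lower (median 3.70), and without one 10 of 11 were higher and 0 lower (median 2.72), among them Cyct (5.89), Dazl (5.42), Asz1 (4.53) and Zfp42 (3.77). E-boxes in 9.69% of windows of genes called higher and 7.48% of those called lower lay near the share of all tested genes.

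The following windows are shown as examples that hold the E-box, 4 from genes higher in germ cells and that of Taf7l, the 1 member of the list that was lower. Each is read 5′ to 3′ along the gene up to its start site, and capitals mark the E-box and the E2F6 motif on either strand. The E-box begins 29 bases before the start in Ddx4, 55 in Stk31 and 49 in Taf7l, and the Hormad1 and Sycp3 windows each hold 2. Ddx4 lies at chr13:112652311-112652560 on the minus strand, Stk31 at chr6:49395289-49395538 on the plus strand, Hormad1 at chr3:95559427-95559676 on the plus strand, Sycp3 at chr10:88459337-88459586 on the plus strand and Taf7l at chrX:134476491-134476740 on the minus strand.
Ddx4: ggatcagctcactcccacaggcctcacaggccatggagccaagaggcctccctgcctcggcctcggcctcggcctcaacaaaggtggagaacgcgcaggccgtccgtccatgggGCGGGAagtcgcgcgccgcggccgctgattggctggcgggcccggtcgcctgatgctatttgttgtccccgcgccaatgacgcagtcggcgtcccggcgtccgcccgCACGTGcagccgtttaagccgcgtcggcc
Stk31: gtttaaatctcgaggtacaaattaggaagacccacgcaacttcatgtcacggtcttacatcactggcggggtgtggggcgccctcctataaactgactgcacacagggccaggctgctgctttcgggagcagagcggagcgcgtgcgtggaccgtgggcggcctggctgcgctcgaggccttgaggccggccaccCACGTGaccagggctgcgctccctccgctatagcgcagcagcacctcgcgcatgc
Hormad1: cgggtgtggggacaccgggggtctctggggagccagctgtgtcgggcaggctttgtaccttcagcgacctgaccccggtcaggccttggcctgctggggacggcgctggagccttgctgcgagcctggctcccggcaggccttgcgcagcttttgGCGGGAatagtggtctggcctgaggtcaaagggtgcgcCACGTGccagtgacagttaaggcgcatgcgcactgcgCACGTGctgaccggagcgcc
Sycp3: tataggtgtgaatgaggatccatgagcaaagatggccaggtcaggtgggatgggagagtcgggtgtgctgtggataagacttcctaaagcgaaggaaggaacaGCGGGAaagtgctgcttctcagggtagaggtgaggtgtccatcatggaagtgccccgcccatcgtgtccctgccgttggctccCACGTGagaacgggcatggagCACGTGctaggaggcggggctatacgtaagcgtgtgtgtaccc
Taf7l: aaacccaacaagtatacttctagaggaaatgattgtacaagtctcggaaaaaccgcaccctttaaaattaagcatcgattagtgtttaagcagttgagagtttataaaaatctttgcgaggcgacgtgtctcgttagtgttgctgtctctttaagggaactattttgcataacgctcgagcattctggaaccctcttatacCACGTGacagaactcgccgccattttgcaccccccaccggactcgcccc

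Taf7l, an X-linked germline paralogue of the general transcription factor TAF7, was lower in germ cells at TS13, with 6.01, 6.05 and 7.04 against 8.84, 9.79 and 10.05 in supporting cells (-3.32 ± 0.22, adjusted p = 1.03e-09). Its arrays did not overlap, and the direction was the same in XX (-3.69) and in XY (-2.96). The other list members with an E-box in the window were Brdt (0.69), Mael (4.04), Slc25a31 (2.70) and Sycp1 (0.87), all higher in germ cells. Dpep3 (0.05), a dipeptidase gene, was the 1 member that did not pass the test.

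Meiotic genes fell into a part already high at TS13 and a part still at the bottom of the arrays. Of 27 genes listed, 18 passed the filter on low values, 14 of them higher and 1 lower in germ cells (all genes: 29.5% and 13.1%). Supporting means of Hormad1 (4.15), Sycp2 (4.44) and Spo11 (4.73) lay below the filter level of those arrays (5.240 or more). Such genes passed mainly through the germ arrays, which favoured a higher call, and genes low in both cell types left the count. Smc1b, a meiotic cohesin subunit, lay at 9.76, 10.11 and 10.51 against 5.35, 5.43 and 5.65 (4.63 ± 0.12). Hormad1 of the chromosome axis differed by 4.69. Sycp3, a component of the synaptonemal complex, lay at 8.27, 8.96 and 9.57 against 5.02, 5.18 and 6.00 (3.70 ± 0.16). Syce1 differed by 3.11 and the cohesin gene Stag3 by 3.02, again with no overlap for Stag3 (9.95 to 10.37 against 6.76 to 7.32). Stra8, the retinoic acid-induced gene of meiotic entry, stayed below the filter, with means of 5.28 in germ and 5.06 in supporting cells. Meioc, a regulator of meiotic prophase, had means of 4.96 and 4.67, Meiob 4.94 and 4.05, and Spata22 4.53 and 4.37. Prdm9, which places meiotic breaks, differed by -0.03 and did not pass the test. Rec8, a meiotic cohesin subunit, was lower in germ cells (-0.39).

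Genes of mitosis and DNA replication were higher in germ cells, with 1 exception. All 22 mitosis genes tested were higher, with a median difference of 2.85, and so were 21 of 22 replication genes, with a median of 1.90. Bub1, a spindle checkpoint kinase, lay at 11.12, 11.24 and 11.78 against 6.47, 7.07 and 8.09 (4.08 ± 0.20). Cenpf differed by 4.09, Ttk by 3.88, the proliferation marker Mki67 by 2.67 and the primase gene Prim1 by 2.99. Gins2, a subunit of the replicative helicase, was lower, at -0.48. Of 6 cyclin-dependent kinase inhibitor genes tested, 2 were lower, 1 was higher (Cdkn2b, 0.27) and 3 did not pass the test. Cdkn1c, which encodes p57, lay at 7.998, 8.21 and 8.79 against 10.42, 11.02 and 11.46 (-2.70 ± 0.13). Cdkn1b, which encodes p27, differed by -2.25 ± 0.28 with overlapping arrays (7.78 to 8.98 against 8.97 to 11.75). Ccne1, the G1/S cyclin E1, was higher (2.77) and Ccnd2, a cyclin D, lower (-1.74). Among all 17 G1 genes 5 were higher and 4 lower (all genes: 29.5% and 13.1%). After quantile normalization 4 were higher and 5 lower (all genes: 21.2% and 22.0%).

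The genes that write and remove DNA methylation were split. Tet1, which oxidises methylated cytosine, lay at 11.49, 11.86 and 12.71 in germ cells against 9.42, 9.72 and 10.33 (2.15 ± 0.19), and the maintenance methyltransferase gene Dnmt1 at 11.41, 11.46 and 12.06 against 9.58, 9.74 and 9.96 (1.88 ± 0.14). The new-methylation enzymes were lower, Dnmt3a by -0.91 and Dnmt3b by -0.68, as was Tet3 (-0.82). Uhrf1, the cofactor that brings DNMT1 to replicating DNA, had an estimate of -0.35 and did not pass the test. In all, 6 of 12 such genes were higher and 3 lower, and 5 and 5 after quantile normalization. Of 25 Polycomb and histone methylation genes, 18 were higher and 2 lower as deposited, among them Phf19 (2.28), Pcgf6 (1.98), Eed (1.48) and Ezh2 (1.10). After quantile normalization 13 were higher and 4 lower.

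**Figure D3:**
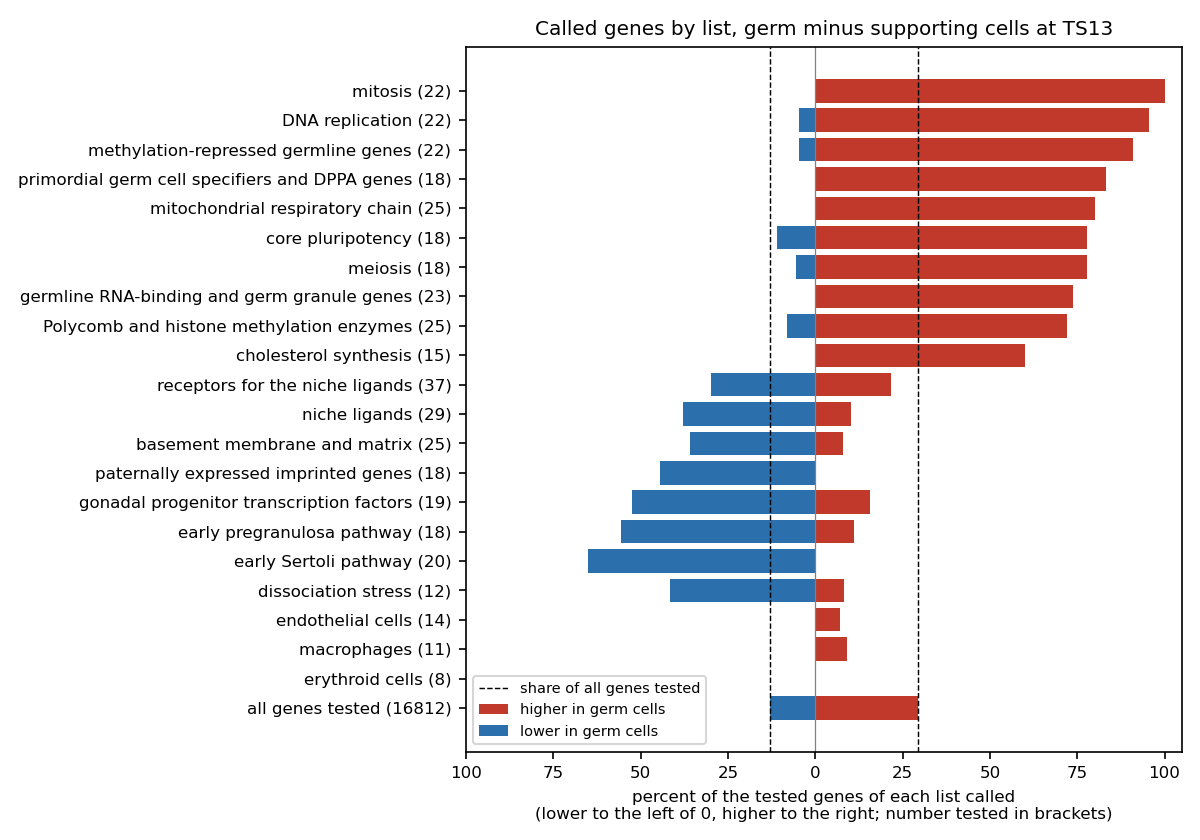
Percent of the tested genes of each list (x axis) called higher (red, right) or lower (blue, left) in germ cells at TS13, with the number tested in brackets and dashed lines at the shares of all genes tested, 29.5% and 13.1%. Mitosis genes were higher in 22 of 22, and genes of the early Sertoli pathway, Sry included, were lower in 13 of 20 and higher in 0.

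Transcription factors of the gonadal primordium were mostly higher in supporting cells. Of 19 tested, 10 were lower and 3 higher in germ cells, with a median difference of -1.43. Lhx9, a LIM homeobox gene required to form the gonad, lay at 6.23, 6.81 and 7.01 in germ cells and 8.96, 10.54 and 11.26 in supporting cells (-3.68 ± 0.27). Gata4 lay at 6.93, 7.28 and 7.84 against 10.12, 10.45 and 10.55 (-3.09 ± 0.15), Emx2 at 5.02, 5.20 and 5.79 against 7.51, 8.36 and 8.84 (-3.04 ± 0.20). Nr5a1, which encodes the nuclear receptor SF1, differed by -1.79 ± 0.16 and its arrays did not overlap (6.64 to 7.77 against 8.43 to 9.26). Gadd45g, an upstream regulator of Sry, differed by -2.80 and Zfpm2, the GATA4 cofactor FOG2, by -2.41. Six4 (2.30), Map3k4 (0.64) and Cbx2 (0.41) were higher in germ cells.

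Genes of both supporting cell fates were more often lower than higher in germ cells. Of 20 early Sertoli genes, 13 were lower and 0 higher (median -0.96). Sry, whose regulatory sequence drove the sort marker of supporting cells, is among the 13. In XX alone 10 of the 20 were lower (median -0.42), and in XY alone 13 (median -1.27). Cst9, a cystatin, differed by -3.83 and Gatm, an enzyme of creatine synthesis, by -3.49, whereas Amh (-0.04) and Dhh (-0.13), which mark later Sertoli cells, did not pass the test. Of 18 early pregranulosa genes, 10 were lower and 2 higher. Runx1 differed by -2.86, Fst by -2.84, Lgr5 by -2.47 and Bmp2 by -2.19. The 2 higher genes, Lef1 (0.76) and Axin2 (0.28), act in WNT signalling, and after quantile normalization 0 of the 18 were higher and 12 lower.

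Signals of the niche were more often on the supporting side. Of 29 ligand genes 11 were lower and 3 higher in germ cells. Beside Kitl, Igf2 lay at 7.56, 7.86 and 8.31 against 10.55, 11.11 and 11.49 (-3.17 ± 0.16) and Igf1 at 5.99, 6.35 and 6.70 against 8.38, 9.39 and 10.08 (-2.96 ± 0.23). Efnb1, an ephrin, differed by -1.59. Rspo3 (0.78), Nodal (0.69) and Pdgfa (0.43) were the 3 higher ligands. The chemokine gene Cxcl12, which guides migrating germ cells, had an estimate of -0.10 and did not pass the test, and its receptor gene Cxcr4 (0.52, adjusted p = 0.054) did not either. Of 37 receptor genes 8 were higher and 11 lower. Those higher included Kit, Fzd7 (1.70), Fgfr1 (1.20) and Lifr (0.98), and those lower Lgr5, Pdgfra (-1.89), Lgr4 (-1.62), Bmpr2 (-1.59) and the IGF receptor gene Igf1r (-1.45). After quantile normalization the receptor counts were 5 higher and 15 lower (all genes: 21.2% and 22.0%).

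Of 18 retinoic acid genes, 5 were lower and 3 higher in germ cells, and 8 lower and 2 higher after quantile normalization. Aldh1a1, a synthesising enzyme, differed by -2.85, and Dhrs3, which returns retinal to retinol, by -2.87. Crabp1, a cytoplasmic binding protein, lay at 10.37, 10.99 and 11.65 in germ cells against 8.31, 8.83 and 9.45 (2.21 ± 0.22).

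Among cell surface genes, Epcam lay at 9.08, 9.25 and 9.88 in germ cells against 5.83, 5.91 and 6.14 (3.44 ± 0.14), and Cdh1, which encodes E-cadherin, at 8.34, 8.62 and 8.73 against 5.98, 6.10 and 6.24 (2.46 ± 0.11). Cdh2, which encodes N-cadherin, differed by -1.71, Cdh11 by -1.89, Itgb5 by -2.61 and Itga6, a laminin receptor subunit, by -3.77. Of the other cadherin genes listed, Cdh3 (0.74) was higher in germ cells, and Cdh4 (0.002), Cdh5 (0.36) and Cdh6 (0.05) did not pass the test. Among 26 adhesion genes 7 were higher and 8 lower, and 7 and 13 after quantile normalization (all genes: 21.2% and 22.0%). Of 25 matrix genes only 2 were higher, Fn1, which encodes fibronectin, at 10.48, 10.54 and 10.75 against 6.43, 6.78 and 6.99 (3.84 ± 0.13), and Nid2 at 9.81, 10.10 and 10.56 against 6.72, 6.88 and 7.36 (3.13 ± 0.14). Its paralogue Nid1 was lower (-1.03), with Lama4 (-1.46) and Vcan (-1.37) among 9 lower genes. Both of these overlapped between cell types, and in XX alone their differences were 0.42 and -0.14. Without the 2 arrays that stand apart 6 matrix genes were lower.

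Imprinted genes expressed from the paternal allele were lower in germ cells in 8 of 18 and higher in 0, with a median difference of -0.04, below that of all genes (0.11). Peg10 lay at 7.91, 8.71 and 9.04 against 11.85, 11.99 and 12.04 (-3.36 ± 0.15). Igf2, described above, belongs here too, with Mest (-2.58) and Peg3 (-1.42). Of 15 maternally expressed genes, 4 were higher and 6 lower. Zim1, a zinc finger gene next to Peg3, lay at 5.98, 6.54 and 7.01 against 10.30, 11.04 and 11.45 (-4.36 ± 0.18). Phlda2, a regulator of placental growth, was higher (3.26 ± 0.15), and Cdkn1c, Grb10 (-2.65) and the long noncoding RNA gene Meg3 (-1.73) were lower. Phlda2 and Cdkn1c lie in 1 imprinted cluster and differed in opposite directions.

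HOX genes separated the cell types in few members. Of 36 tested, 7 were lower and 1 higher (all genes: 13.1% and 29.5%). After quantile normalization 8 were lower and 1 higher (all genes: 22.0% and 21.2%). Hoxc6 differed by -1.70 with overlapping arrays, and Hoxa10 (0.52) was the higher gene. Among metabolic genes, Gclc, the rate-limiting enzyme of glutathione synthesis, lay at 9.90, 10.21 and 10.58 in germ cells against 6.59, 7.14 and 7.49 (3.10 ± 0.14), and Mgst1, a membrane glutathione transferase, at 5.08, 5.23 and 5.89 against 9.45, 9.81 and 10.15 (-4.51 ± 0.15). The glutathione list was 8 higher and 6 lower of 18 as deposited, and 6 higher and 8 lower after quantile normalization. Pfkp (3.15) and the glucose transporter gene Slc2a3 (2.98) were higher, and the lactate dehydrogenase genes Ldhb (-2.03) and Ldha (-1.45) lower, among 6 higher and 6 lower of 18 glycolysis genes (4 and 8 after quantile normalization). Respiratory chain genes were higher in 20 of 25 as deposited, with a median of 0.61, and in 8 of 25 after quantile normalization. Cholesterol synthesis genes were higher in 9 of 15, led by Sqle (1.61). In the MHC class I list, 1 of 14 genes was higher and 2 lower, and 1 and 5 after quantile normalization. The heavy chain genes H2-K1, H2-D1 and H2-T23 of that list were not measured. B2m, the light chain of the complex, differed by -4.46 ± 0.27.

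Markers of other cells that the sorts could hold were counted in the same way. Of 14 endothelial genes 1, Pecam1, was higher (3.63 ± 0.17), while Cdh5 (0.36), Kdr (-0.27) and Tek (0.21) did not pass the test. The mean level of the endothelial list was 6.393 to 6.787 on germ arrays and 6.077 to 6.343 on supporting arrays, which do not overlap. Without Pecam1 the means of the other 13 genes overlapped, at 6.098 to 6.502 against 6.060 to 6.275. Of 11 macrophage genes 1 was higher, Tyrobp (0.99), with list means of 5.862 to 6.192 against 5.717 to 6.166. None of 8 erythroid genes was called higher or lower, with list means of 6.62 to 7.251 against 6.409 to 7.128. Among steroidogenic genes 2 of 6 were lower (4 after quantile normalization), Cyp11a1 (-2.08) and Nr5a1, which is also a gonadal progenitor gene, and the list means were 5.827 to 6.315 against 6.474 to 6.616, again with no overlap. Interstitial genes were 1 higher and 2 lower of 10, with list means of 6.334 to 6.823 against 6.785 to 6.913. Mesonephric genes were 3 higher and 4 lower of 11, with list means of 6.717 to 7.142 against 6.99 to 7.268. Genes induced by tissue dissociation were lower in germ cells in 5 of 12 and higher in 1, and lower in 9 and higher in 0 after quantile normalization, with list means of 7.489 to 8.117 against 8.414 to 8.949, which do not overlap. Jun differed by -2.66 and Fosb by -2.30. The part of these cells and of dissociation in the differences above was not tested.

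Whether the contrast depended on sex was asked by subtracting the XX difference from the XY difference, with n = 3 arrays per group. Of 16812 genes 257 (1.53%) passed the test in limma, 127 (0.755%) with a higher and 130 (0.773%) with a lower difference in XY. After quantile normalization 399 passed, 144 and 255 by direction. Without germ XY replicate 3 and supporting XY replicate 3, 208 passed, 65 higher and 143 lower. Leaving out single arrays gave 152 without germ XY replicate 1, 166 without germ XX replicate 1 and 170 without supporting XX replicate 2. The sort markers Pou5f1, Ddx4, Wt1 and Kitl were not among the genes that passed.

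The genes with the largest dependence on sex differed among supporting cells and hardly among germ cells, apart from the Y-linked genes Uba1y and Zfy1. Sry lay at 11.85, 11.76 and 11.92 on the 3 supporting XY arrays, at 8.22, 8.17 and 8.13 on supporting XX arrays, and between 7.36 and 8.19 on all germ arrays, XY included (-3.57 ± 0.27, adjusted p = 1.36e-07). Its target Sox9, the Sertoli cell transcription factor, lay at 11.76, 11.71 and 11.62 in supporting XY, at 8.47, 8.21 and 8.71 in supporting XX, and from 7.30 to 8.30 in germ cells (-3.17 ± 0.31). Supporting XY arrays thus lay above supporting XX arrays for Sox9, a gene of the testis pathway, at the stage labelled as before differentiation. The same order for Sry, which is Y-linked and absent from XX cells, was set by genotype and is not a result. Fgf9, a growth factor of that pathway, lay at 10.42, 10.52 and 10.28 in supporting XY and at 6.77, 6.70 and 6.78 in supporting XX (-3.80 ± 0.22). Lama4, a laminin chain gene, changed by -3.77 ± 0.27, Ppargc1a, a coactivator of mitochondrial genes, by -3.72 ± 0.33, and Dct, a melanin synthesis gene, by -3.48 ± 0.28. In these 3 the supporting XY arrays were again the high ones. Etv5, an ETS factor known to answer FGF signals, was high in germ cells of both sexes (11.43 to 12.31) and in supporting XY cells (10.61, 10.63 and 10.32), and low in supporting XX cells (6.63, 6.72 and 7.28).

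In the other direction supporting XX cells were the high group. Fst, which encodes the activin antagonist follistatin, lay at 11.47, 11.46 and 11.37 in supporting XX and at 8.05, 7.83 and 7.92 in supporting XY (3.74 ± 0.27). Bmp2 lay at 10.02, 10.17 and 10.17 against 7.27, 7.65 and 7.17 (2.71 ± 0.27). Slc7a11, a cystine importer, lay at 8.16, 8.27 and 8.43 against 5.06, 5.57 and 5.33 (3.14 ± 0.27), and germ cells of both sexes lay between 4.62 and 5.30. Fst, Bmp2 and Slc7a11 therefore separated germ cells from XX supporting cells far more than from XY supporting cells. Xist, a noncoding RNA of X inactivation, lay at 11.27, 11.28 and 11.20 in supporting XX, at 6.61, 5.39 and 6.86 in supporting XY, at 6.74, 7.69 and 6.75 in germ XX and at 6.82, 6.09 and 6.80 in germ XY (4.47 ± 0.44, adjusted p = 5.44e-06). Germ XX arrays were thus near the XY arrays. Over XX and XY arrays together, X-linked genes had a median germ minus supporting difference of 0.082 over 555 genes, beside 0.114 over 16182 autosomal genes. Of the X-linked genes 23.1% were lower and 31.5% higher, and of the autosomal genes 12.8% and 29.4%. In the XY minus XX contrast the medians were 0.07 for X-linked and 0.093 for autosomal genes. There 0.9% of X-linked genes were higher and 1.1% lower, beside 0.7% and 0.8% of autosomal genes.

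The Y-linked genes Uba1y and Zfy1 were high in germ XY cells only. Uba1y, a ubiquitin-activating enzyme, lay at 10.14, 9.74 and 10.44 in germ XY and at 5.52, 5.74 and 5.84 in supporting XY, near the XX arrays of both cell types (5.59 to 6.33). Zfy1 lay at 7.55, 8.05 and 7.11 against 4.61, 4.63 and 4.70. Of 20 early Sertoli genes tested, 7, Sry among them, had a lower and 1 a higher difference in XY. Of 18 early pregranulosa genes 5 had a higher and 1 a lower one. The shares of all genes were 0.755% higher and 0.773% lower. The progenitor genes Lhx9 (1.67 ± 0.34) and Emx2 (1.24 ± 0.27) separated the cell types less in XY, since supporting XY cells had lower means (9.54 and 7.83) than supporting XX cells (11.19 and 8.80).

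**Figure D4:**
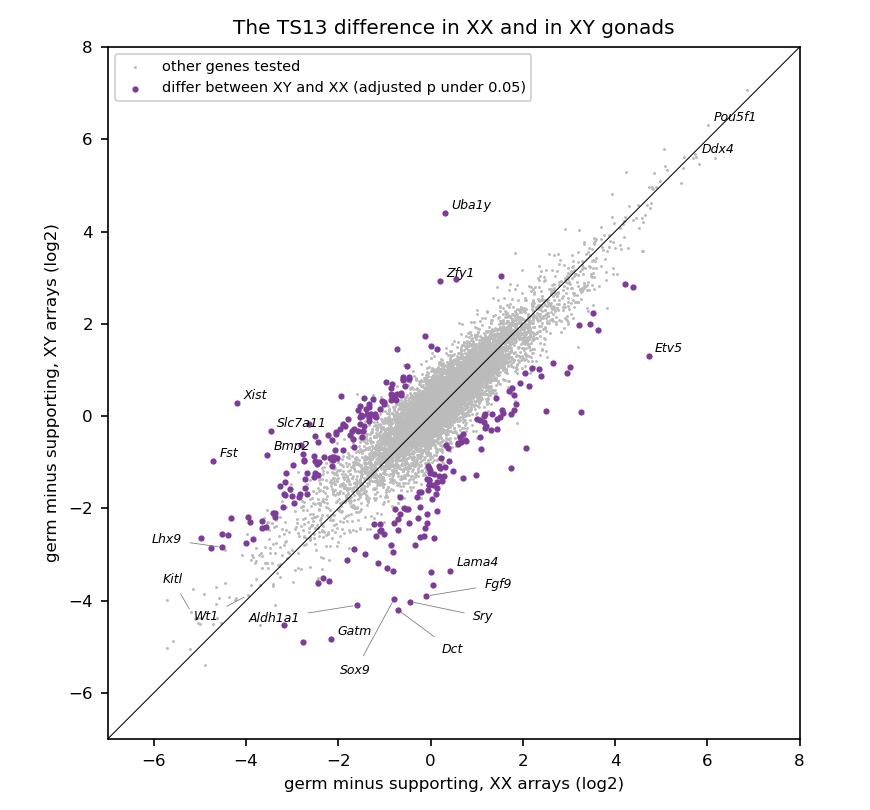
Germ minus supporting log2 difference at TS13 in XX arrays (x axis) and in XY arrays (y axis) for each tested gene, with the 257 genes whose difference depended on sex in purple and the line of equal difference. Sry, Sox9 and Fgf9 lie near 0 in XX and near -4 in XY, Fst and Xist lie below -4 in XX, and Pou5f1, Ddx4, Wt1 and Kitl lie near the line.

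The same contrast was then set against TS34, after differentiation, within each sex, using the same TS13 arrays and n = 3 arrays per group. In XX gonads the germ minus supporting difference changed for 2030 of 17221 genes (11.8%), rising for 769 (4.47%) and falling for 1261 (7.32%). In XY gonads it changed for 2206 (12.8%), rising for 590 (3.43%) and falling for 1616 (9.38%). After quantile normalization 1288 rose and 1387 fell in XX, and 1086 rose and 1467 fell in XY. Without germ XX TS34 replicate 3 the falling genes in XX were 799, and without germ XY TS34 replicate 1 those in XY were 1054. In XY the supporting cells came from another mouse line at TS34, so stage and line cannot be told apart there.

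Most meiotic genes gained in XX. Of 24 tested 19 rose and 0 fell in XX (all genes: 4.47% and 7.32%), and 6 rose and 2 fell in XY (3.43% and 9.38%). At TS13 alone 18 of the list had passed the filter. Stra8 and Meioc, below it at TS13, were tested only through the TS34 arrays, so the filter favoured a change in such genes. Stra8 lay at 5.22, 4.92 and 5.35 in germ XX cells at TS13 and at 10.39, 10.06 and 10.21 at TS34, while supporting XX cells stayed between 5.02 and 5.57, so the difference rose by 4.85 ± 0.27. Meioc lay at 5.48, 4.84 and 4.66 and then at 9.53, 9.64 and 10.09 (4.72 ± 0.30), and Sycp2, a synaptonemal complex protein, rose by 3.84 ± 0.31. Hormad1, already high at TS13, rose by 1.12 ± 0.37. Smc1b, with an estimate of 0.73 ± 0.35, did not pass the test. In XY germ cells Nanos2, an RNA-binding regulator of male germ fate, lay at 6.20, 5.57 and 6.41 at TS13 and 9.67, 9.70 and 10.20 at TS34 (3.64 ± 0.28).

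Pluripotency genes lost part of their difference. Of 18 genes 10 fell and 1 rose in XX, and 7 fell and 0 rose in XY. Tdgf1 fell by 3.73 in XX, from 10.72, 10.42 and 9.76 to 6.48, 6.31 and 6.02 in germ cells. Nanog fell by 1.88 in XX and by 1.57 in XY, and Pou5f1 fell by 1.52 in XX, where the germ minus supporting difference was still 4.48. All 22 mitosis genes fell in XY, where Mki67 went from a difference of 2.38 to 0.45. Its germ XY means were 10.22 and 9.88 and its supporting XY means 7.84 and 9.43. In XX, 5 mitosis genes rose and 0 fell.

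Kitl kept its difference in both sexes by estimate, with -5.18 and -5.28 in XX and -4.25 and -4.08 in XY at TS13 and TS34, a change of -0.10 ± 0.32 and 0.17 ± 0.32. Taf7l turned over. Germ XX cells lay at 6.06, 6.02 and 6.93 at TS13 and 11.10, 10.21 and 11.31 at TS34, and supporting XX cells at 9.98, 10.03 and 10.05 and then 8.44, 8.19 and 7.97, so that the difference rose by 6.36 ± 0.38. In XY it rose by 6.67 ± 0.38, to 3.72. Other large differences of TS13 were near 0 at TS34. Pnliprp2 fell in supporting XX cells from 11.98, 12.02 and 12.25 to 6.75, 6.47 and 6.56. Dock4 in supporting XY cells went from 10.99, 10.75 and 10.53 to 6.65, 6.46 and 6.70, Sry from 11.85, 11.76 and 11.92 to 7.91, 7.96 and 7.74, and Zim1 from 10.90, 10.52 and 10.30 to 6.26, 6.09 and 6.34. These supporting XY values compare 2 mouse lines.

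**Figure D5:**
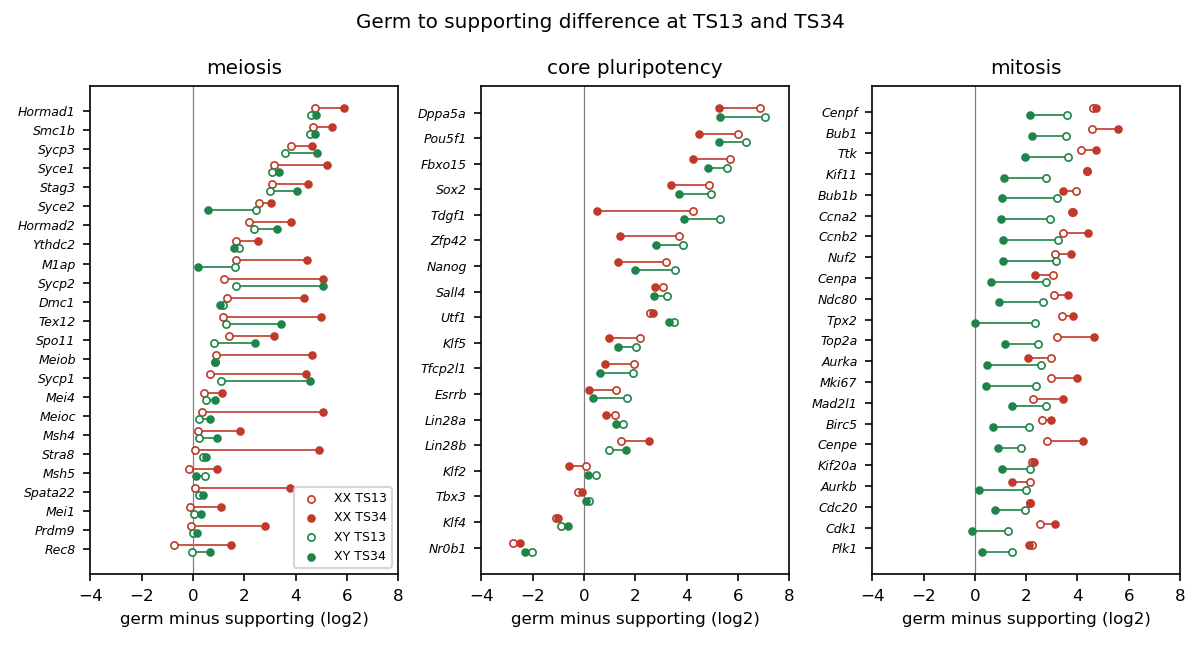
Germ minus supporting log2 difference (x axis) of the meiosis, core pluripotency and mitosis genes at TS13 (open points) and TS34 (filled points), red for XX and green for XY, each a difference of 2 means of 3 arrays. Meiosis genes such as Stra8 move right in XX, pluripotency genes such as Tdgf1 move left, and all 22 mitosis genes move left in XY.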

How the data were processed

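The authors deposited log2 expression values per probe set, made with RMA per the submitters' processing notes. Its version, the probe set definition and the scaling between arrays were not found in the labels. The 12 TS13 arrays and 12 TS34 arrays were used as deposited, and 0 columns belonged to other samples. Of 35557 probe sets, 21789 carried 1 gene symbol, 1621 several and 12147 none. By Entrez identifier 21698 symbols were updated to RefSeq GRCm38.p6, which left 19938 genes. For the 999 genes with several probe sets, the one of highest mean was used. Genes were kept for testing when 3 or more arrays showed them above the 25th percentile of all probe sets, leaving 16812 at TS13 and 17221 over both stages. A gene could pass through arrays of 1 cell type or 1 stage alone, where it was high, which favours a call in that direction.

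The model was fitted in limma 3.58.1 (R 4.3.3), with cell type and the XX or XY label at TS13 (9 residual and 7.924 prior degrees of freedom, median SE 0.1359). Dependence on sex and on stage was tested as contrasts of group means. A gene was called at a two-sided p, adjusted by Benjamini-Hochberg across every gene tested, below 0.05. The number of arrays limits precision. Replicates may or may not be separate gonad pools, which the labels leave unsaid, and p-values therefore reflect the spread of these samples alone, which may be technical.

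Named genes were the 4 marker genes, the 10 largest calls in each direction without overlap, the 5 largest in each direction for the other contrasts, and members of 38 gene lists. Etv5, Mir17hg, Mir99a and Mir100hg with the other microRNA genes were named after their values were seen. Members and lists were chosen with earlier results of these data known. Zim1 and Ddc were moved between the imprinted lists, to the parental allele each is expressed from, after their values were seen, which took the paternal list from 9 to 8 lower genes. On simulated data the TS13 comparison found 26 of 67 genes shifted by 0.5 log2 units, 65 of 67 shifted by 1 and 66 of 66 shifted by 2, and it called 5 genes that had no shift. The XY minus XX contrast found 0, 16 and 55 of the same numbers, and called 4 without a shift. Only these few of 16812 genes were shifted, with noise drawn independently per gene, whereas 42.6% were called in the TS13 data. For the TS13 comparison the recovery and false calls of the simulation therefore do not carry over to the reported counts. Alternatives covered scaling, filter, probe set rule, the replicate number as a block, all 36 arrays, the variance prior, each sex alone and each array left out.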

Additional observations from a re-analysis of the deposited data

Results flagged for a closer look

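The germ minus supporting difference at TS13 was compared between XY and XX by a test of the difference itself, and 257 genes passed. The estimates for XY minus XX were 4.47 for Xist, 4.10 for Uba1y, 3.74 for Fst, 3.14 for Slc7a11 and 2.71 for Zfy1, and -3.80 for Fgf9, -3.77 for Lama4, -3.72 for Ppargc1a, -3.57 for Sry and -3.48 for Dct.

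The same difference was compared between TS34 and TS13 in the same way. In XX 2030 genes passed, with 6.36 for Taf7l, 4.96 for Pnliprp2, 4.85 for Stra8, 4.72 for Meioc and 3.84 for Sycp2, and -3.91 for Ldb2, -3.87 for Hbb-y, -3.73 for Tdgf1, -3.61 for Gstm6 and -3.57 for Mir18. Hbb-y, an embryonic globin gene, varied between supporting XX arrays at TS34 (9.37, 6.42 and 10.26). In XY 2206 genes passed, with 6.67 for Taf7l, 5.58 for Bnc2, 4.75 for Dock4, 4.60 for Nup62cl and 4.04 for Sry, and -4.80 for Jam2, -4.76 for AU015836, -4.71 for Dsp, -4.64 for H2bc4 and -4.50 for Tubb3. H2bc4 belongs to a histone family with near-identical copies. The XY values at TS34 also carry the change of supporting cell line.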

How the results depend on the processing

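Of the counts of called genes under other settings, 227 stayed within 1.5 times the reported count and 31 moved further. With a difference of at least 1 log2 unit required, the TS13 comparison gave 2783 genes, 1906 higher and 877 lower. After quantile normalization it gave 3700 lower genes. For XY minus XX, quantile normalization gave 399 genes, 255 of them lower, and centring gave 228 lower. Fitting all 36 arrays gave 121, 54 higher and 67 lower, and leaving out both XY replicate 3 arrays, chosen after seeing the data, gave 65 higher. For TS34 minus TS13, quantile normalization gave 1288 higher in XX and 1086 in XY, and all 36 arrays gave 1130 in XX (448 higher, 682 lower) and 1297 in XY (325 higher, 972 lower). The fits of all 36 arrays also held the TS24 arrays, 1 of which was known to go against its label. The cause of these shifts was not tested.

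Leaving out 1 array at a time gave 6729 to 7109 genes at TS13 (4669 to 5098 higher, 1986 to 2340 lower), 152 to 279 for XY minus XX (56 to 174 higher, 85 to 150 lower), 1466 to 2492 for the stages in XX (595 to 765 higher, 799 to 1777 lower) and 1695 to 2403 in XY (466 to 736 higher, 1054 to 1933 lower).  Replicate numbers were not taken as pairs: same-numbered arrays correlated in their deviations at -0.06 to 0.05, -0.21 to 0.09 and 0.02 to 0.09 for numbers 1, 2 and 3. With the replicate number as a block the counts were 7138, 247, 1991 and 2159.

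The TS13 difference turned in 1 sex alone for 4 named genes: in XX it was 0.71 for Gstm6, 0.42 for Lama4 and 0.05 for Ppargc1a, and in XY it was 0.29 for Xist. Among named genes, 423 values under other settings no longer passed the test, 22 newly passed it and 8607 kept direction and call. Low signal limits the genes near background, whose differences are compressed.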

Other observations

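MicroRNA host loci of the miR-17 family were examined after their values had been seen. The probe sets read hairpin genes or their host transcripts on an array of long RNA, and mature microRNAs were not measured. Of 15 hairpin genes of the 3 related clusters on chromosomes 14, X and 5, 10 passed the filter on low values, 3 lay below it and 2 had no probe set with 1 symbol. Of those 10, 9 were higher in germ cells and 1 was not called, and over all 157 microRNA genes tested 20 were higher and 11 lower. In supporting cells Mir106a, Mir20b and Mir363 reached at most 4.60, 4.65 and 4.32, below the filter level of those arrays (5.240 or more). These genes were tested through germ arrays alone, so the filter favoured a higher call. The count is a description of loci picked for their values. Mir18 lay at 8.31, 8.78 and 9.29 (lowest, median and highest) in germ cells against 4.90, 5.84 and 7.40 in supporting cells, Mir17 at 7.23, 7.65 and 7.98 against 5.29, 5.69 and 6.64, and Mir363 at 5.65, 7.23 and 8.44 against 4.10, 4.20 and 4.32. Their differences were 2.75 ± 0.28, 1.74 ± 0.19 and 2.90 ± 0.33, and the host transcript Mir17hg differed by 1.92 ± 0.19. Mir20a (1.70), Mir19b-1 (1.74), Mir106a (1.11), Mir20b (0.84), Mir25 (0.61) and Mir106b (0.45) were higher as well, and Mir93 (-0.04) was not called.

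The mature sequences of the 6 hairpin genes with the largest differences fall into 4 seed groups. They are given 5′ to 3′ from RefSeq (GRCm38.p6), with bases 2 to 8 in capitals. The products of Mir17, Mir20a and Mir106a share a seed, and those of Mir18, Mir19b-1 and Mir363 each have another.
mmu-miR-17-5p: cAAAGUGCuuacagugcagguag
mmu-miR-20a-5p: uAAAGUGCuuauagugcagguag
mmu-miR-106a-5p: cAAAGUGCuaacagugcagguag
mmu-miR-18a-5p: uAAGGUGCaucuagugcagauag
mmu-miR-19b-3p: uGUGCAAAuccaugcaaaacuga
mmu-miR-363-3p: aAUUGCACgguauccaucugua

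Hairpin loci also lay on the supporting side. Mir99a was at 4.92, 5.03 and 5.34 in germ cells and 6.48, 7.68 and 11.18 in supporting cells (-3.06 ± 0.53), with the widest spread among supporting arrays. Mir100hg, a host transcript of a related locus, lay at 6.27, 6.49 and 7.25 against 9.08, 9.37 and 9.59 (-2.76 ± 0.14).

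Housekeeping genes used as references were not level between the cell types. Of 16 tested, 9 were higher and 2 lower in germ cells as deposited, and 5 higher and 4 lower after quantile normalization. Tfrc differed by 1.85, Hprt by 1.40 and Tbp by 1.34, while Actb (0.09) and Pgk1 (-0.20) did not pass the test. Gusb (-1.46) and B2m (-4.46) were lower.

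Among cell death genes 5 of 14 were higher and 3 lower in germ cells as deposited, beside 29.5% and 13.1% of all genes. After quantile normalization 3 were higher and 6 lower, beside 21.2% and 22.0%. Casp8, the initiator caspase of death receptors, lay at 5.29, 5.81 and 6.24 against 7.96, 8.82 and 9.43 (-2.94 ± 0.16), and the survival gene Bcl2 at 6.50, 7.14 and 7.56 against 8.95, 9.24 and 9.30 (-2.09 ± 0.17). Bid, which links both death pathways, was higher (1.02).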
